A study of Mus musculus with 17 samples.

Results

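Plasmacytoid dendritic cells (pDC) that received leukaemia inhibitory factor (LIF) together with CpG-A were compared with pDC that received CpG-A alone. The comparison was made up of the 3 arrays titled as CpG-A with LIF and the 3 titled as CpG-A, 6 of the 17 arrays of the study. It covered 19751 genes, each represented by 1 of the table's 24680 probe sets. All cells were pDC from the bone marrow of C57BL/6 mice, isolated by magnetic depletion of other cells and then by flow sorting on intermediate CD11c, B220 and Siglec-H. In both groups CpG-A oligonucleotide 2216 was given at 6 µg/ml for 19 to 23 h, and the LIF group received LIF at 10 ng/ml, starting 1 h before CpG-A and lasting 20 to 24 h. The groups set beside them were CpG-B (oligonucleotide 1826, 6 µg/ml) with LIF and without it (3 arrays each), LIF alone (3 arrays) and medium (2 arrays). No genotype is named beyond the strain, the age of the mice is not given in the sources used here, and the labels do not state whether replicates are separate animals or pools. The p-values below therefore reflect only how much these arrays vary, and part of that variation may be technical.

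pDC sense DNA in endosomes through TLR9, and CpG-A, which is held in early endosomes, is known there for driving the factor IRF7 to switch on the interferon alpha and beta genes. Secreted interferon then acts on its receptor and induces the interferon-stimulated genes, among them IRF7 itself. LIF binds the LIF receptor together with gp130 and signals through JAK kinases and STAT3, whose targets include the feedback inhibitor SOCS3. The comparison asks what LIF changes in pDC that respond to CpG-A.

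Interferon genes made up 9 of the 30 largest differences of the comparison, on the reading explained below, so stretches of their promoters are shown first. Each line gives the 80 bases from 140 to 61 bases upstream of the annotated start in RefSeq (build GRCm38.p6), 5′ to 3′ on the gene's own strand. Capitals mark the IRF pair motif, GAAA followed by 2 bases of any kind and by GAAA again, which is the core of the element that IRF factors bind. The first 4 genes had readings beyond the limit on direction explained below and hold a match. Ifna13 had a small reading and no match, and Ifnb1 had a large reading and no match. The stretches of Ifna13 and Ifnb1 do hold GAAA repeats at another spacing, which this fixed pattern does not count.
Ifna12, chr4:88603437-88603516, minus strand: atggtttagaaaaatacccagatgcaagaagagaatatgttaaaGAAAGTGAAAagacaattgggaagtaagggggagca
Ifna4, chr4:88841676-88841755, plus strand: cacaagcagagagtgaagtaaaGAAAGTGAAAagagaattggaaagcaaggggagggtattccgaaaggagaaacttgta
Ifna11, chr4:88819779-88819858, plus strand: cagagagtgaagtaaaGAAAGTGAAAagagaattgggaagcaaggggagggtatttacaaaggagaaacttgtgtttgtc
Ifnab, chr4:88691329-88691408, minus strand: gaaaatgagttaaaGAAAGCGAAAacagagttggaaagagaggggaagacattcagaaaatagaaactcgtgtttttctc
Ifna13, chr4:88644520-88644599, minus strand: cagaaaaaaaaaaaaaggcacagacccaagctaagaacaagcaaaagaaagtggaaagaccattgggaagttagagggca
Ifnb1, chr4:88522855-88522934, minus strand: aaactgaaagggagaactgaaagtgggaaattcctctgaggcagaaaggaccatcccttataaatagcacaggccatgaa

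The values are array intensities whose decimal mark is missing from the deposited table, so a log2 value is fixed only up to adding or taking away 3.32, the log2 of 10, any number of times. Of the possible sizes of a group difference, the one closest to 0 (at most 1.66 either way, in log2) is called the nearest reading. It is printed ± SE, with n = 3 arrays a group unless stated. The SE and the p-values rest on limma's variance for each gene. That variance is pooled over the arrays of all groups of the study and drawn towards that of other genes. An SE can therefore lie below or above what the arrays compared would give alone. Direction was read only up to a size of 1.11 (2.15-fold), since the other possible reading is then at least 4.64-fold the opposite way. Beyond that limit both readings are given and the direction is open. Called genes are those with a limma p, adjusted by Benjamini-Hochberg over all 19751 genes, under 0.05. Because levels are lost, the sorted cell type could not be checked by the level of its markers, and an array's position is given relative to the mean of the CpG-A arrays. The groups of a gene are said to be apart when all 3 arrays of one lie above all 3 of the other. Precision is limited by how many arrays there are. The median SD within groups was 0.19, and the SD of single arrays around their group mean over all genes lay between 0.146 and 0.213. That mean includes the array itself, so with so few arrays a group this measure can hardly show a single array to stand apart.

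For LIF added to CpG-A, the interferon alpha gene Ifna12 was the only gene called among 19751 (0.00506% called). The direction of Ifna12 was open, and its call was lost in 8 of 12 alternative settings. With the replicate number entered as a block, 12 genes were called, Ifna12, Ifna4 and Ifnab among them. Of the 30 genes that read beyond the limit, 9 were type I interferon genes, Ifna12 among them, and 8 of these 9 had a nearest reading below 0. Interferon-stimulated genes and pDC identity genes read mostly slightly below 0, and monocyte, macrophage and conventional dendritic cell markers mostly slightly above 0, with 0 members called in each of these lists. At an unadjusted p under 0.05 there were 1200 genes, 602 of them below 0. Over all genes, 5.8% were apart lower with LIF and 5.15% apart higher, and the median reading was 0.0038. These are the values to set beside the counts of each list below.

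**Figure D1:**
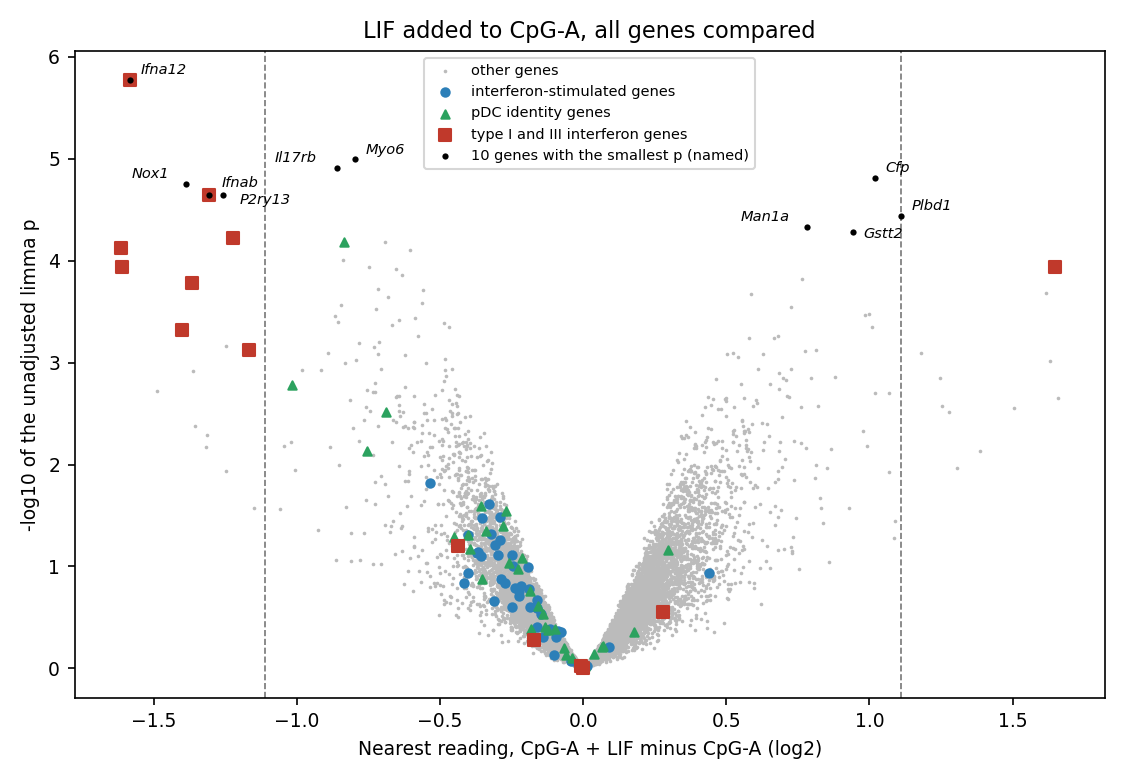
Each point is 1 of the 19751 genes, with its nearest reading of CpG-A + LIF minus CpG-A (log2) on the x axis and the -log10 of its unadjusted limma p on the y axis; dashed lines mark the limit on direction at 1.11 on either side of 0. Interferon genes (squares) hold 9 of the 30 readings beyond the limit, with Ifna12 at the top left, while interferon-stimulated genes (circles) and pDC identity genes (triangles) lie mostly a little left of 0.

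Interferon alpha genes encode the secreted antiviral proteins that pDC are known for. Ifna12 stood at 0.57, -0.41 and -0.15 in the 3 CpG-A arrays and at -1.63, -1.68 and -1.43 in the 3 CpG-A + LIF arrays. The LIF arrays lay close together, below all CpG-A arrays on this reading and above them, at 1.69, 1.64 and 1.89, on the other. The nearest reading was -1.58 ± 0.23 (2.99-fold lower) and the other reading 1.74 (3.34-fold higher), with adjusted p = 0.0337 in limma. The call did not hold in all settings. It was lost in each of the 6 fits that left out 1 array (adjusted p 0.0519 without CpG-A replicate 2 to 0.119 without CpG-A + LIF replicate 2). It was also lost in a fit on the 6 arrays alone (adjusted p = 0.15), and when all 24680 probe sets were tested (adjusted p = 0.0804). Over all alternatives the adjusted p ranged from 0.0299 to 0.15.

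The other interferon genes were not called. Ifna4, an early interferon alpha gene, stood at 0.23, -0.32 and 0.09 with CpG-A and at -0.84, -2.64 and -1.36 with LIF, a nearest reading of -1.61 ± 0.32 (or 1.71; limma adjusted p = 0.104). Its LIF arrays were all below the CpG-A arrays on this reading and all above them, at 2.49, 0.69 and 1.96, on the other, and they spread over 1.80, more than the 1.66 within which readings are unambiguous. The SD of Ifna4 was 0.92 in the CpG-A + LIF arrays and between 0.07 and 0.35 in the other groups. The pooled SE of Ifna4 is thus smaller than its CpG-A and CpG-A + LIF arrays alone would give. Without CpG-A + LIF replicate 3 the reading of Ifna4 moved to -0.07. Ifnab, another interferon alpha gene, stood at -0.13, -0.26 and 0.39 with CpG-A and at -1.16, -1.61 and -1.15 with LIF, a reading of -1.31 ± 0.23 (or 2.02; adjusted p = 0.0646). Its groups were apart on either reading. Ifnb1, the single interferon beta gene, stood at 0.12, -0.26 and 0.14 with CpG-A and at -0.80, -1.89 and -0.98 with LIF, a reading of -1.22 ± 0.23 (or 2.10; adjusted p = 0.0998). It was also apart on either reading, with replicate 2 the lowest of the LIF arrays.

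Ifna5 read -1.61 ± 0.33 (or 1.71) and Ifna2 -1.40 ± 0.33 (or 1.92), both with groups apart on either reading. Ifna14 read -1.37 ± 0.29 (or 1.96) and Ifna9 -1.17 ± 0.29 (or 2.155). On the nearest reading their groups overlapped, since LIF replicate 1 lay just above CpG-A replicate 2. On the other reading they were apart. Ifna11 was the exception in sign. Its nearest reading was 1.65 ± 0.34, with LIF arrays at 2.63, 0.58 and 1.74, a range of 2.05. The SD of Ifna11 was 1.03 in these arrays and between 0.13 and 0.33 in the other groups, so its pooled SE is likewise small. On its other reading, -1.67, the same LIF arrays stand at -0.69, -2.74 and -1.58. In the 8 genes beyond the limit with a reading below 0, CpG-A + LIF replicate 2 was the lowest of the 3 LIF arrays in all 8, and replicate 1 the highest in 5. Replicate 2 was also the lowest of the 3 CpG-A arrays in 13 of the 14 interferon genes. Ifna genes resemble each other so closely that 1 probe set can pick up RNA of several, and these genes are not separate measurements.

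Of the 14 type I and III interferon genes measured, 5 had small readings. Ifnl2, an interferon lambda gene, read -0.44 ± 0.22, Ifna13 -0.17 ± 0.27, and the keratinocyte interferon gene Ifnk 0.28 ± 0.25. Ifne and Ifna16, an epithelial and an alpha interferon gene, read -0.01 ± 0.13 and -0.00071 ± 0.19. The groups of all 5 overlapped. Over the 14 genes the median of the nearest readings was -1.20, with 12 below 0, 6 apart lower and 1 apart higher. The 7 genes apart all read beyond the limit, so this direction is open. With the 9 readings beyond the limit turned to their other value, the median was 1.71, with 8 genes apart higher and 1 apart lower. Single arrays set this median to a large extent. Without CpG-A + LIF replicate 1 it was -0.10, without CpG-A replicate 2 -0.23, without CpG-A replicate 1 -0.68, and without CpG-A + LIF replicate 3 -0.77. Among the genes whose 17 arrays fit within 1.66 of each other it was -0.0045. All 9 genes with a reading beyond the limit fail that condition, so this value covers none of them and says nothing about their readings.

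**Figure D2:**
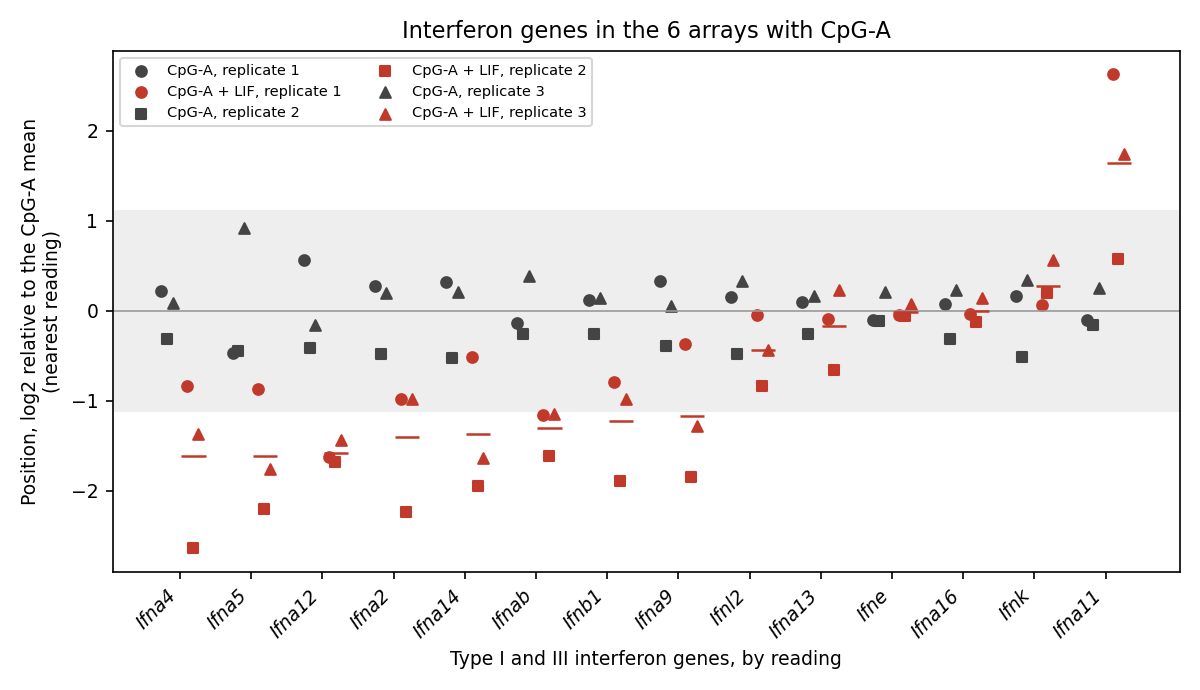
Position of each of the 14 interferon genes (x axis) in the 6 arrays with CpG-A, on the log2 scale relative to the mean of the CpG-A arrays (y axis, nearest reading); symbols are replicates, grey is CpG-A, red is CpG-A + LIF, bars are the red means and the shaded band is the range in which direction was read. In 8 genes the red mean lies below -1.11, in Ifna11 above 1.11, and the square (replicate 2) is the lowest red point in 13 of the 14 genes.

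The genes with the large readings are set beside their values in cells not given CpG-A. In LIF added to CpG-B, which shares no array with the comparison, Ifna12 read -0.17 ± 0.23, Ifna4 -0.31 ± 0.32, Ifnab -0.10 ± 0.23 and Ifnb1 -0.21 ± 0.23, and in LIF vs medium (n = 3 and 2) the same genes read -0.19 ± 0.25, -0.30 ± 0.35, 0.43 ± 0.26 and 0.60 ± 0.26. The median of the 14 genes was -0.14 with CpG-B and -0.01 without CpG, against -1.20 with CpG-A. The difference between the readings with CpG-A and with CpG-B was -1.41 for Ifna12 (limma adjusted p = 0.581) and -1.21 for Ifnab (adjusted p = 0.93), so neither was called as different between the CpG backgrounds. The difference from LIF without CpG was -1.83 for Ifnb1 (adjusted p = 0.0837) and -1.74 for Ifnab (adjusted p = 0.103).

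The place of these genes before LIF was added can be given only by readings. CpG-A vs medium and CpG-A + LIF vs LIF each share arrays with the comparison, so their values are set side by side without a test between them. CpG-A vs medium called 3300 of all genes (16.7%) and CpG-A + LIF vs LIF called 3430 (17.4%). For Ifna12 CpG-A vs medium read -1.08 ± 0.25 (or 2.24), and CpG-A + LIF vs LIF 0.85 ± 0.23 (or -2.47). For Ifnab the values were -0.45 ± 0.26 (or 2.88) and 1.14 ± 0.23 (or -2.18). For Ifnb1 they were 0.48 ± 0.26 (or -2.85) and -1.35 ± 0.23 (or 1.97). A response near 10-fold cannot be told from a small one on this scale.

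Among the 14 interferon genes, the IRF pair motif, searched on both strands in the 250 bases upstream of each RefSeq start, was found in 8 (57.1%). All 8 were among the 9 genes with a reading beyond the limit, Ifnb1 being the one without a match, and 0 of the 5 genes with small readings held it. As interferon alpha genes resemble each other closely, these matches are not separate observations. Whether the motif bears on the readings was not tested. It was found in 2.98% of all 32851 windows of this length and in 3.4% of 15482 compared genes with a window, and in 12 of 34 interferon-stimulated genes (35.3%). The gamma-activated site TTCNNNGAA, the type of sequence STAT3 binds, was found in 7.02% of all windows, in 5 of the 14 interferon genes and in 6 of 28 STAT3 target genes with a window. Matches of the motifs were counted separately and may overlap. Some gene models begin at the start codon, which shifts the window, so absence of a match says only that these letters are not in it.

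Interferon-stimulated genes, the antiviral genes switched on through the interferon receptor, read slightly lower with LIF. Of 46 measured members 0 were called, 43 had a nearest reading below 0, 13 were apart lower and 0 apart higher, against 5.8% and 5.15% of all genes, and the median was -0.22. By array, the median position of the list was -0.01, -0.10 and 0.11 with CpG-A and -0.08, -0.41 and -0.17 with LIF. Only LIF replicates 2 and 3 lay below all CpG-A arrays. CpG-A + LIF replicate 2 was the lowest LIF array in 36 of the 46 genes, and CpG-A replicate 2 was the lowest CpG-A array in 33. Without CpG-A + LIF replicate 2 the list's median was -0.11.

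Among the sensors and transducers of the list, Dhx58, a regulator of RNA sensing, read -0.54 ± 0.20, with arrays at -0.03, -0.19 and 0.22 with CpG-A and at -0.10, -1.05 and -0.45 with LIF. Its groups overlapped. Irf7, the main inducer of interferon alpha genes in pDC, stood at -0.06, -0.10 and 0.16 with CpG-A and at -0.25, -0.52 and -0.43 with LIF, a reading of -0.40 ± 0.19 (limma adjusted p = 0.815). All 3 LIF arrays were below the CpG-A arrays. Stat2 and Irf9, which carry the interferon receptor's signal to the nucleus, read -0.29 ± 0.13 and -0.31 ± 0.16, both apart lower.

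Among the effectors, Xaf1, which promotes cell death, read -0.35 ± 0.15, Usp18, which removes ISG15 and restrains the receptor, -0.33 ± 0.13, and the RNA-cleavage activator Oas3 -0.32 ± 0.15. These 3 were apart lower. The antiviral GTPases Mx1 and Mx2 read -0.25 ± 0.14 and -0.37 ± 0.19 with overlapping groups, and Ifit1, which binds viral RNA, -0.22 ± 0.16. At the other end, Ifit3 read -0.01 ± 0.20, Ifitm3, an inhibitor of virus entry, -0.01 ± 0.17, and Ifitm1 0.44 ± 0.26. The list read the same way with CpG-B, with a median of -0.23 and 19 members apart lower, against 6.68% of all genes lower and 7.23% higher in that comparison, and 7 of the 46 genes were apart lower in both. In LIF vs medium its median was 0.15.

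**Figure D3:**
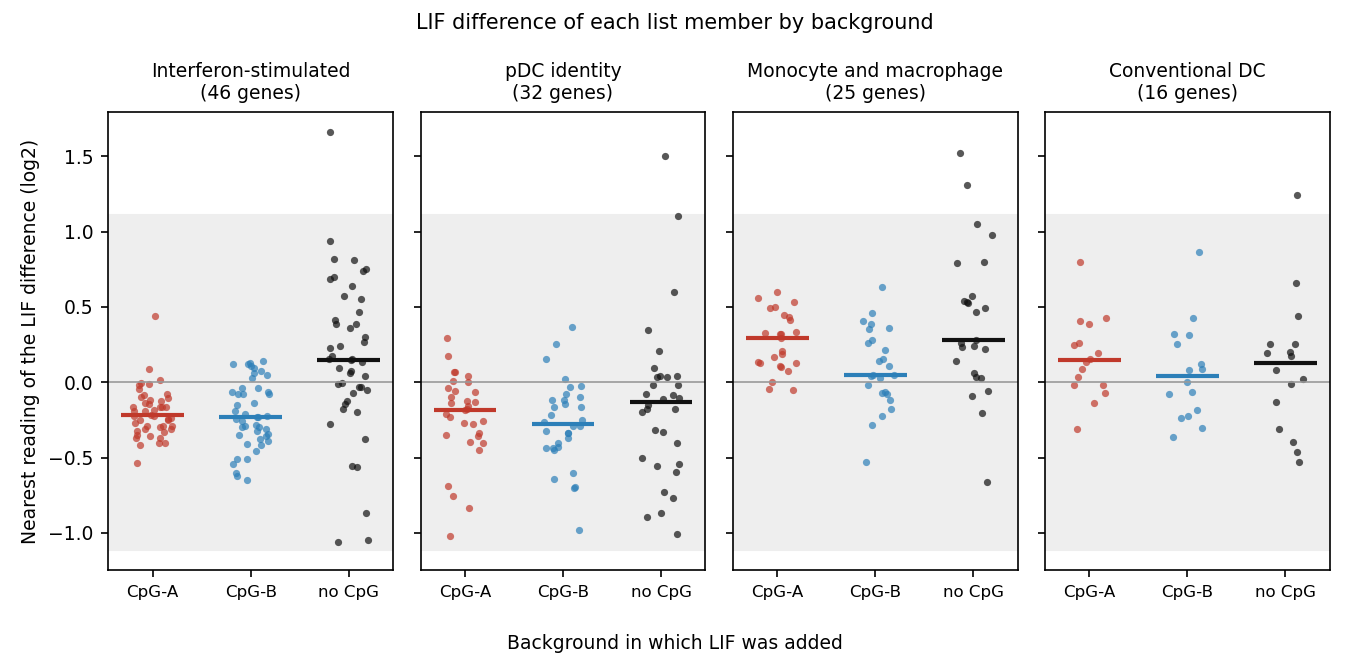
Nearest reading of the LIF difference (y axis, log2) for every measured member of 4 gene lists, with LIF added to CpG-A, to CpG-B or to cells without CpG (x axis); points are genes, bars are list medians and the shaded band is the range in which direction was read. Interferon-stimulated genes have medians of -0.22, -0.23 and 0.15 in the 3 backgrounds, and monocyte and macrophage markers 0.29, 0.05 and 0.28.

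The sensing machinery showed small readings. Of 29 endosomal TLR signalling genes 0 were called, 4 were apart lower and 2 apart higher, with a median of -0.14. Over all genes 5.8% were apart lower and 5.15% apart higher. Tlr9, the CpG receptor, stood at 0.06, -0.06 and 0.01 with CpG-A and at -0.14, -0.34 and -0.33 with LIF, a reading of -0.27 ± 0.11 (limma adjusted p = 0.741). Unc93b1, which carries TLR9 to endosomes, read -0.20 ± 0.11, and both genes were apart lower. Myd88, the adaptor of TLR9, read -0.21 ± 0.14 and Irf5, a factor for inflammatory cytokines, -0.21 ± 0.12, both overlapping. Of 25 NF-kB genes 0 were called and 4 were apart lower, namely the subunit Rel (-0.30 ± 0.13), the inhibitors Nfkbie (-0.41 ± 0.15) and Nfkbid (-0.40 ± 0.16) and the ubiquitin ligase Birc2 (-0.36 ± 0.13). The inhibitor Nfkbia read 0.30 ± 0.16 and was the 1 gene of the list apart higher.

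The LIF receptor pathway itself had readings near 0. Of 28 genes of the receptor and JAK-STAT list 0 were called, with a median of -0.03, and of 8 SOCS family genes 0 were called and 0 were apart. Lifr, the LIF receptor, read 0.04 ± 0.11, Il6st, which encodes gp130, 0.13 ± 0.13, and Stat3 -0.06 ± 0.11. Socs3, the feedback inhibitor of gp130, stood at -0.15, 0.07 and 0.07 with CpG-A and at 0.46, 0.09 and -0.01 with LIF, a reading of 0.18 ± 0.16 (limma adjusted p = 0.949). Its groups overlapped, with LIF replicate 1 the highest array. A second probe set for Socs3 read -0.05 ± 0.25.

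Of 34 STAT3 target and gp130 feedback genes, 0 were called, 21 read above 0 and 1 was apart, with a median of 0.07. That gene was Fos, an immediate early factor, at 0.35 ± 0.18. The NF-kB co-factor Bcl3 read 0.13 ± 0.21 and the kinase gene Pim1 -0.02 ± 0.18. Cebpd, an acute-phase factor, read 0.46 ± 0.21, Myc 0.42 ± 0.18 and Ier3, a survival gene, 0.44 ± 0.20, all with overlapping groups. Tnfaip6, a secreted matrix-binding protein, had the lowest reading of the list at -0.73 ± 0.27.

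Genes that mark the pDC read slightly lower. Of 32 measured members of the identity list 0 were called and 26 read below 0, with a median of -0.18. In this list 13 were apart lower and 0 apart higher, against 5.8% and 5.15% of all genes. By array, the list's median was -0.06, 0.08 and 0.00 with CpG-A and -0.16, -0.23 and -0.16 with LIF, so the groups did not overlap. In a bulk sample, fewer cells of a type and less RNA per cell cannot be told apart. With CpG-B, 15 of the 32 were apart lower and 1 higher, against 6.68% and 7.23% of all genes, with a median of -0.28. In both CpG backgrounds 7 genes were apart lower. In LIF vs medium (n = 3 and 2) the list's median was -0.13, with 22 genes below 0 and 10 above.

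The lectin receptor gene Clec10a stood at -0.41, 0.66 and -0.25 with CpG-A and at -1.13, -0.68 and -1.25 with LIF, a reading of -1.02 ± 0.28 (limma adjusted p = 0.373). Upb1, a pyrimidine-degrading enzyme, stood at -0.04, 0.00 and 0.04 with CpG-A and at -0.96, -0.63 and -0.91 with LIF, a reading of -0.84 ± 0.16 (adjusted p = 0.0998). It was well apart, with CpG-A arrays that lay close together. Havcr1, the receptor TIM-1, read -0.69 ± 0.20, and the kallikrein gene Klk1b27 -0.76 ± 0.25, both apart lower. Spib, a pDC transcription factor, read -0.36 ± 0.15 and was apart lower. Tcf4, the E protein that maintains pDC identity, read -0.10 ± 0.11 with overlapping groups. Siglech, the receptor used for the sort, read -0.19 ± 0.13 with CpG-A and -0.70 ± 0.13 with CpG-B, both apart lower. In LIF vs medium Clec10a read -1.01 ± 0.31, Upb1 -0.77 ± 0.18, Havcr1 -0.89 ± 0.22 and Klk1b27 -0.54 ± 0.28. There Spib read -0.59 ± 0.16, Tcf4 -0.18 ± 0.13 and Siglech -0.02 ± 0.15. Id2, which opposes E proteins, read 0.20 ± 0.16 and was apart higher, and the E-protein and Id list of 24 genes had a median of -0.04.

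Markers of several other cell types read above 0. Of 25 monocyte and macrophage markers 0 were called and 23 read above 0, with a median of 0.29. In this list 6 were apart higher and 0 apart lower, against 5.15% and 5.8% of all genes. By array, the list's median was -0.06, 0.05 and 0.07 with CpG-A and 0.18, 0.34 and 0.31 with LIF, with no overlap. Adgre1, which encodes the macrophage marker F4/80, stood at -0.46, 0.44 and 0.02 with CpG-A and at 0.50, 0.86 and 0.44 with LIF, a reading of 0.60 ± 0.22 (limma adjusted p = 0.642). Its groups were apart by a narrow margin. The complement gene C1qc read 0.50 ± 0.29 and the integrin gene Itgam 0.45 ± 0.27, both apart higher. The lysozyme genes Lyz1 and Lyz2 read 0.53 ± 0.24 and 0.56 ± 0.29, and the co-receptor Cd14 0.49 ± 0.23, all with overlapping groups. The median of the list was 0.05 with CpG-B and 0.28 in LIF vs medium. Among the members whose 17 arrays fit within 1.66 of each other, the median with CpG-A was 0.133.

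Of 16 conventional dendritic cell markers 0 were called and 11 read above 0. In this list 6 were apart higher and 0 lower (5.15% and 5.8% over all genes), and its median was 0.15. Without CpG-A replicate 2 this median was 0.0935, without CpG-A replicate 3 it was 0.224, and among members whose 17 arrays fit within 1.66 of each other it was 0.0634. Itgax, which encodes CD11c, part of the sort, stood at 0.25, -0.18 and -0.07 with CpG-A and at 1.25, 0.62 and 0.52 with LIF, a reading of 0.80 ± 0.21 (limma adjusted p = 0.347). It read 0.87 ± 0.21 with CpG-B, also apart higher. Cadm1, an adhesion molecule, read 0.43 ± 0.20 and the growth factor receptor Flt3 0.39 ± 0.15, both apart higher. Wdfy4 read 0.26 ± 0.13 and was also apart higher, while a second probe set of that gene read -0.05 ± 0.22. The cross-presenting cell marker Clec9a read -0.31 ± 0.18 and the chemokine receptor Xcr1 -0.02 ± 0.14, with overlapping groups.

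Neutrophil markers varied between cultures of both groups. The 18 genes had a median of 0.39 with 0 apart, and by array the list stood at -0.39, 0.58 and -0.14 with CpG-A and at 0.05, 0.92 and 0.00 with LIF, so that replicate 2 was the highest in each group. Progenitor and mast cell markers (10 genes, 0 called, 1 apart higher, median 0.36) included the stem cell factor receptor Kit at 0.48 ± 0.18. Markers of B cells (16 genes, median 0.06), plasma cells (7, median -0.03), T and NK cells (17, median -0.04) and erythroid cells and megakaryocytes (9, median -0.02) stood near 0. The part of these markers in the interferon and identity readings was not tested. With levels lost, none of the marker lists could be given as a summed level or checked for defining markers at 0.

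**Figure D4:**
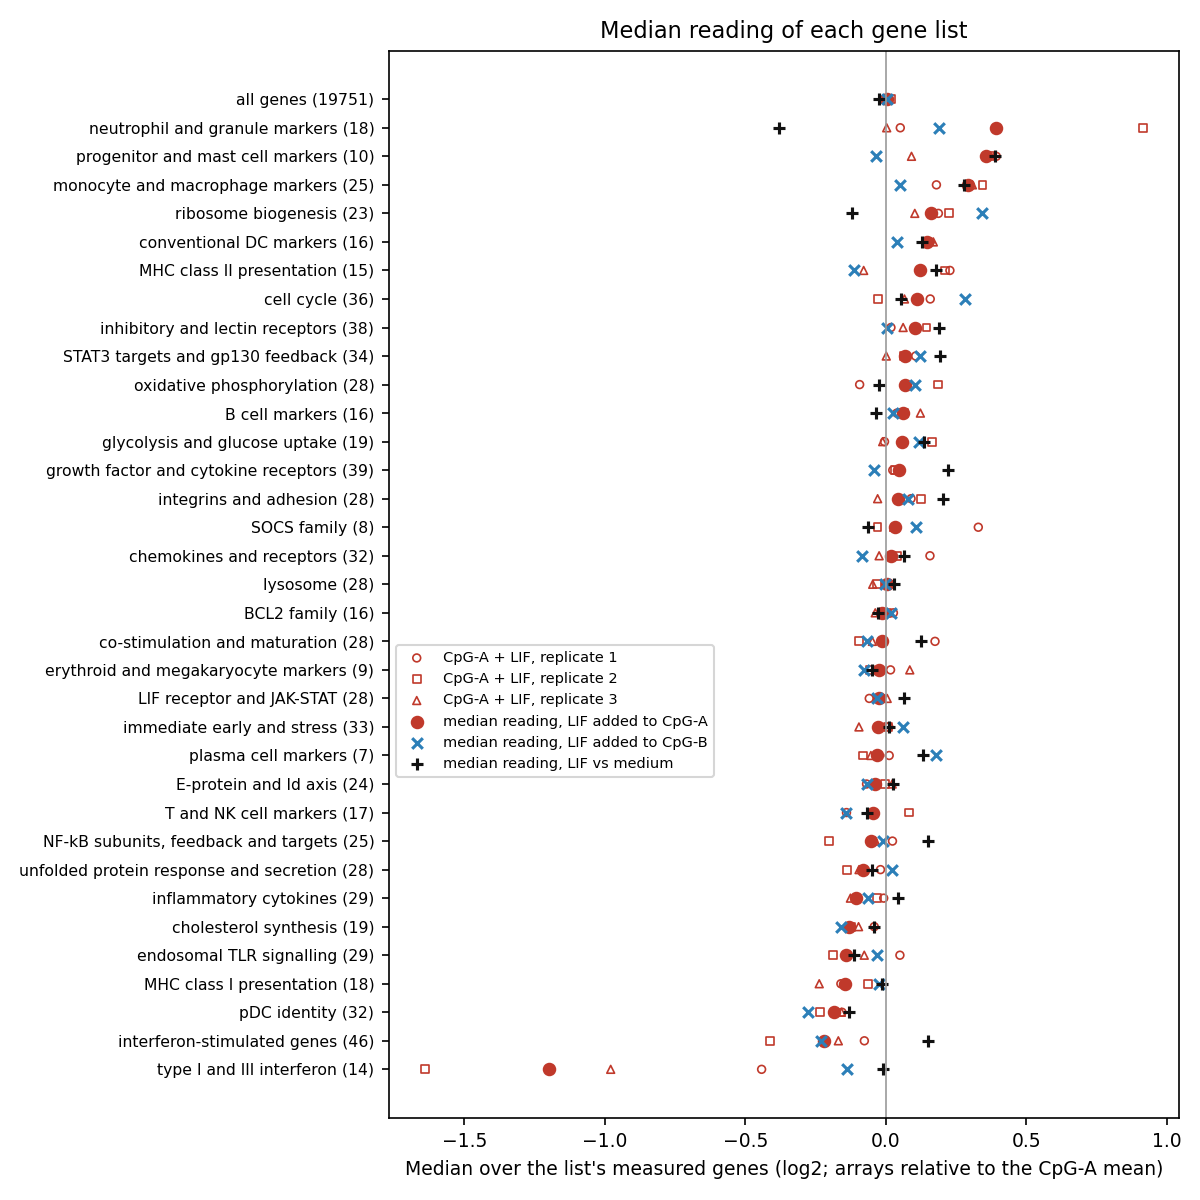
Median over the measured genes of each of 34 gene lists and over all genes (rows, number of genes in parentheses), in log2; filled circles are LIF added to CpG-A, open symbols its 3 CpG-A + LIF arrays relative to the CpG-A mean, crosses LIF added to CpG-B and plus signs LIF vs medium. The interferon list lies at -1.20 with its 3 arrays spread from -1.64 to -0.44, all other lists lie between -0.22 and 0.39.

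Antigen presentation genes are given by class. Of 18 MHC class I presentation genes 15 read below 0, with a median of -0.14 and 0 called. Apart lower were 4 genes, against 5.8% of all genes. They were the nonclassical gene H2-Q4 (-0.52 ± 0.16), the peptide editor Tapbpl (-0.34 ± 0.15) and the immunoproteasome subunits Psmb10 (-0.33 ± 0.14) and Psmb9 (-0.32 ± 0.13). Of 15 MHC class II genes 2 read below 0, with a median of 0.12 and 0 called. Apart higher were 2 genes, against 5.15% of all genes. These were H2-Ob, a brake on peptide loading (0.34 ± 0.21), and Lgmn, a lysosomal protease (0.23 ± 0.16). Ciita, the master regulator of the class, read 0.12 ± 0.27.

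Of 38 inhibitory and lectin receptors 0 were called, 7 were apart higher and 3 apart lower, against 5.15% and 5.8% of all genes. Clec5a, an activating myeloid lectin, stood at -0.49, 0.28 and 0.21 with CpG-A and at 0.61, 1.05 and 2.17 with LIF. It had the largest reading of the list, 1.28 ± 0.37 (or -2.04; limma adjusted p = 0.43), with groups apart and a wide spread among the LIF arrays. The inhibitory receptor Pilra read 0.98 ± 0.30 and the B cell receptor inhibitor Cd72 0.53 ± 0.17, both apart higher. Clec4a2, an inhibitory lectin, read 0.85 ± 0.30 with overlapping groups. Of 39 growth factor and cytokine receptors 0 were called, with Il12rb2 at -0.55 ± 0.21 (apart lower) and the interferon receptor genes Ifnar1 and Ifnar2 at 0.09 ± 0.11 and 0.09 ± 0.10.

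Among cytokines, Tnfsf10, which encodes the death ligand TRAIL, read -0.80 ± 0.25 (apart lower), Tnf -0.15 ± 0.18, Il6 0.35 ± 0.26 and Il12b 0.31 ± 0.29, and 0 of 29 inflammatory cytokine genes were called. Xbp1, the secretory cell factor of the unfolded protein response, read -0.29 ± 0.15, and 23 of the 28 genes of that list read below 0 with a median of -0.08. Ribosome biogenesis genes had a median of 0.16 (23 genes, 3 apart higher), and cell cycle genes 0.11 (36 genes, 3 apart higher). Over all genes 5.15% were apart higher. Among the cell cycle genes, cyclin A (Ccna2) read 0.47 ± 0.15 and cyclin D1 (Ccnd1) -0.55 ± 0.16. Of the 34 lists, 33 held 0 called genes.

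The 10 genes with the smallest p were apart in all 10 cases on the nearest reading, 6 below 0 and 4 above, and 9 of them were not called. Choosing by the smallest p on these same arrays favours close arrays and groups that lie apart, so neither is a separate result. After Ifna12 came the motor protein gene Myo6 (-0.80 ± 0.13), the IL-25 receptor gene Il17rb (-0.86 ± 0.14), Cfp, which encodes the complement activator properdin (1.02 ± 0.17), the NADPH oxidase Nox1 (-1.39 ± 0.24, or 1.94), Ifnab and the ADP receptor P2ry13 (-1.26 ± 0.22, or 2.06), which share a limma adjusted p of 0.0646. Myo6 stood at 0.05, -0.05 and 0.00 with CpG-A and at -0.82, -0.71 and -0.86 with LIF. Il17rb stood at -0.03, 0.05 and -0.02 with CpG-A and at -0.91, -0.87 and -0.80 with LIF. In both genes the arrays of each group lay close together and the groups far apart. Plbd1, a lysosomal phospholipase-like protein, read 1.11 ± 0.20 (or -2.21; adjusted p = 0.0901), the Golgi mannosidase Man1a 0.78 ± 0.15 and the glutathione transferase Gstt2 0.94 ± 0.18 (both 0.0998). With CpG-B, P2ry13 read -1.08 ± 0.22, Plbd1 0.74 ± 0.20 and Il17rb -0.53 ± 0.14, and Myo6 -0.15 ± 0.13 and Man1a -0.25 ± 0.15. In LIF vs medium (n = 3 and 2) the same genes read -0.87 ± 0.25, 0.49 ± 0.23, -0.34 ± 0.16, -0.33 ± 0.15 and 0.79 ± 0.16. Man1a was called there (limma adjusted p = 0.0295). Without CpG, Cfp read 0.73 ± 0.19, Gstt2 0.22 ± 0.20 and Nox1 0.03 ± 0.27.

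Whether LIF acted differently with CpG-A than with CpG-B was tested on the difference of the readings. LIF added to CpG-B called 12 genes (0.0608%), and the difference called 0 (0%; smallest limma adjusted p 0.104, with 1009 genes at an unadjusted p under 0.05). The 5 genes with the smallest p were the noncoding gene Map2k3os, the neuronal tubulin Tubb3, Proser3, the IL-7 receptor gene Il7r and the tetraspanin Tspan2. Map2k3os read -0.20 ± 0.16 with CpG-A and 1.24 ± 0.16 (or -2.085) with CpG-B, and Il7r 0.38 ± 0.13 and -0.62 ± 0.13. Tubb3 read 0.43 ± 0.21 and -1.17 ± 0.21 (or 2.16), Proser3 -0.72 ± 0.16 and 0.48 ± 0.16, and Tspan2 -0.71 ± 0.17 and 0.53 ± 0.17. The nearest readings had opposite signs in the CpG backgrounds, and none of the differences was called. For Map2k3os and Tubb3 the reading with CpG-B lay beyond the limit, so its direction was open. On the other reading its sign was that of the reading with CpG-A.

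The same test against LIF vs medium called 10 genes (0.0506%), while LIF vs medium itself called 160 (0.81%; n = 3 and 2). In the 10 genes the reading with CpG-A was small, between -0.38 and 0.49, and the reading without CpG large. Socs3 read 0.18 ± 0.16 with CpG-A and -1.49 ± 0.18 (or 1.83) without CpG, a difference of 1.67 (limma adjusted p = 0.021). Thra, a thyroid hormone receptor, read 0.31 ± 0.13 and -1.13 ± 0.14 (or 2.20; adjusted p = 0.014). Fgl2, an immunoregulatory fibrinogen-like protein, read 0.49 ± 0.23 and -1.66 ± 0.25 (or 1.67; adjusted p = 0.0332), Eid3 -0.32 ± 0.20 and 1.63 ± 0.23 (or -1.70; adjusted p = 0.0332), and the inhibitory receptor gene Lilrb4a 0.37 ± 0.21 and -1.53 ± 0.23 (or 1.79; adjusted p = 0.0365). The direction of these differences was open, as the readings without CpG lay beyond the limit. Cdh1, which encodes E-cadherin, was the 1 gene with both readings within the limit. It read -0.38 ± 0.15 with CpG-A and 0.93 ± 0.17 without CpG, lower with CpG-A by a difference of -1.31 (adjusted p = 0.0402). With CpG-B, Cdh1 read -0.85 ± 0.15, Socs3 0.11 ± 0.16 and Thra 0.27 ± 0.13. Fgl2 read 0.21 ± 0.23 there, Eid3 -0.39 ± 0.20 and Lilrb4a -0.27 ± 0.21. None of the 10 genes was called as different between CpG-A and CpG-B.

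**Figure D5:**
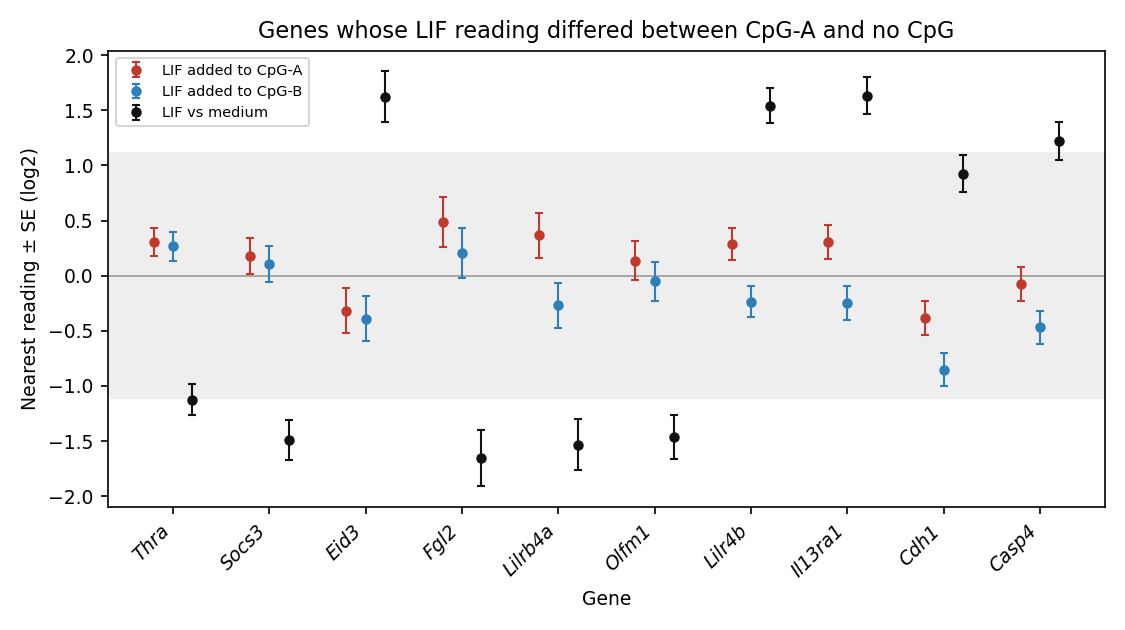
Nearest reading ± SE (y axis, log2) of the LIF difference with CpG-A (red), with CpG-B (blue) and without CpG (black) for the 10 genes (x axis) whose reading differed between CpG-A and no CpG; the shaded band is the range in which direction was read. The red points lie between -0.38 and 0.49, and the black point of Cdh1 is the 1 black point inside the band.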

How the data were processed

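Total RNA of 17 Affymetrix arrays was processed with RMA, per the submitters' processing notes; no version of it is named in the labels. The table deposited by the authors holds the digits of linear intensities without the decimal mark, so other (neither a log2 value nor a level) is its unit. From it log2 modulo 3.32 was taken. Arrays were unfolded around circular group means and fitted with limma (version 3.58.1, R version 4.3.3). All 17 arrays entered a model that gives each group its own mean. The procedure was tested on simulated data with independent noise, where recovery of the nearest reading was scored. That test cannot show whether the nearest reading is the true one.

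Probe sets with 1 symbol were used (21354 of 24680); 893 genes had several, and the one with the most accessions was kept. Genes were named where called, among the 10 smallest p, among the 5 smallest of each difference, or on a short list of LIF, pDC and interferon genes. The comparison and the lists were chosen with earlier results of these data known, and further genes were named after their values were seen. Replicate numbers were not used as pairs, as same-numbered CpG-A and CpG-A + LIF arrays correlated weakly (0.075, 0.17 and 0.015). A correlation over all genes cannot exclude that arrays of 1 number share a source. In each group replicate 2 was the lowest array in 13 of the 14 interferon genes. With the number as a block, 12 genes were called, as given below.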

Additional observations from a re-analysis of the deposited data

Results flagged for a closer look

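The readings of LIF differed between cells given CpG-A and cells given no CpG in 10 genes, by a limma test of the difference itself with Benjamini-Hochberg adjustment over 19751 genes. The difference, CpG-A minus no CpG, was 1.43 for Thra, 1.67 for Socs3, -1.94 for Eid3, 2.14 for Fgl2 and 1.90 for Lilrb4a. It was 1.60 for Olfm1, -1.26 for Lilr4b, -1.33 for Il13ra1, -1.31 for Cdh1 and -1.30 for Casp4. Lilrb4a and Lilr4b, neighbouring receptors of 1 family, differed in opposite directions on the nearest reading. All but Cdh1 had an open direction, because the reading without CpG lay beyond the limit. None of the 10 was called as different between CpG-A and CpG-B. The medium group has 2 arrays. Leaving out CpG-A replicate 1 left 1 gene called, and leaving out LIF replicate 2 gave 31.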

How the results depend on the processing

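Of the settings tried, the probe set choice, array centring and robust moderation kept Ifna12 as the 1 call of LIF added to CpG-A. The count became 0 with only the arrays compared, with only genes whose 17 arrays fit within 1.66 of each other, at an adjusted p under 0.01, and with every probe set tested (chosen after seeing the data). The condition of fitting within 1.66 leaves Ifna12 itself out. Leaving out 1 array gave 0 to 1 genes, the 1 being Snord53 or Nox1. Without the limit on direction, 1 gene read lower in place of 0. LIF added to CpG-B gave 0 with only the arrays compared, 2 within 1.66, 1 at 0.01 and 1 to 9 without 1 array. LIF vs medium gave 17, 13, 51 and 16 to 139, and its difference from CpG-A gave 0, 0, 0 and 1 to 31. CpG-A vs medium gave 1879 within 1.66, 2141 at 0.01 and 2128 to 2941 without 1 array, and CpG-A + LIF vs LIF 1851 and 2236. The difference from CpG-B gave 0 to 2. As a block, the replicate number gave 12 genes for LIF added to CpG-A (Ifna12, Ifna4 and Ifnab among them). It gave 19 for CpG-B and 30 for the difference from medium. The labels do not say what the number marks. By correlation, 1 of the 3 CpG-A arrays matched best with its own number. Replicate 2 was the lowest array in 13 of the 14 interferon genes, both with CpG-A and with CpG-A + LIF. Whether arrays of 1 number share a source was not tested. Small readings changed sign without 1 array: Stat3 ranged from -0.12 to 0.00012, Lifr from -0.0127 to 0.0833, Bcl3 from -0.00094 to 0.29 and Pim1 from -0.116 to 0.0898. Apart from settings that test fewer genes, fewer arrays or a lower threshold, the cause of these changes was not tested. Background correction and normalization could not be varied without levels.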

Other observations

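Probe sets that list several genes were left out of the comparison, and 3 of them list interferon alpha genes. The one that lists 6 genes read -1.29 ± 0.23 (or 2.04) for LIF added to CpG-A, the one with 13 genes -1.37 ± 0.29 (or 1.95) and the one with 12 genes -1.26 ± 0.27 (or 2.07). In limma over all 24680 probe sets their adjusted p was 0.116, 0.157 and 0.157, so none was called. Their CpG-A + LIF arrays stood at -0.70, -1.65 and -1.50, at -0.57, -2.18 and -1.37, and at -0.58, -1.89 and -1.29, with replicate 2 the lowest in each. With CpG-B they read 0.08, -0.16 and 0.08.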
